A study of Homo sapiens with 6 samples.

Results

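The 9 genes HLA-DRA, HLA-DRB1, HLA-DPA1, HLA-DPB1, HLA-DMA, HLA-DMB, CD74, CIITA and RFX5, which serve antigen presentation by MHC class II, were measured with bulk RNA-seq in cells of the triple-negative breast cancer line MDA-MB-231. They were picked by symbol from the 62703 genes in the count tables, and all 9 were found by identifier. The comparison was between 3 libraries from cells with a control hairpin (shControl) and 3 from cells with hairpin RNA against RNF20 (shRNF20). RNF20 is a ubiquitin ligase for histone H2B, and the series title names immunosuppression, CDK9 and LSD1. How many hairpin sequences were used and whether the cells were pools or clones is not stated in the labels, and neither is an interferon treatment.

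MHC class II molecules are pairs of an alpha and a beta chain that show peptides from the endosome to CD4 T cells. CD74, the invariant chain, holds the groove of a new pair until HLA-DM (HLA-DMA with HLA-DMB) exchanges the remaining CD74 fragment for a peptide. CIITA is the master coactivator of these genes: it binds no DNA itself but docks on a promoter platform made of the RFX complex (RFX5, RFXAP, RFXANK), CREB and NF-Y, which sit on the X and Y boxes. Dendritic cells, macrophages and B cells express class II constitutively, while most tumour and epithelial cells do so after interferon gamma induces CIITA.

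Letters like those of the X2 and Y boxes stand in the promoters of several of the 9 genes. Shown are the 4 that hold TGATGA followed by a Y box, with HLA-DPB1, which has Y box letters without TGATGA, for contrast. RefSeq windows (GRCh38.p14, from 250 bases before to 50 after the start) were at hand for 7 of the 9 genes; HLA-DRA and CIITA had none. Printed are the 130 bases before the start, 5′ to 3′ on the gene's own strand. Capitals mark the Y box letters CCAAT or their complement ATTGG, the letters TGATGA, which resemble the core of an X2 box, and, in HLA-DMB, the X box letters CCTNGNAAC just before them.
CD74 (chr5:150412911-150413040, minus strand): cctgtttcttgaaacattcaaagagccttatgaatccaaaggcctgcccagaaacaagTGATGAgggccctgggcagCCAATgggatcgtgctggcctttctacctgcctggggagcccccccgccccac
HLA-DRB1 (chr6:32589849-32589978, minus strand): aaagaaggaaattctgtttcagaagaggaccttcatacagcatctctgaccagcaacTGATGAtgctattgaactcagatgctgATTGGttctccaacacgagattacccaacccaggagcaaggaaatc
HLA-DMA (chr6:32953098-32953227, minus strand): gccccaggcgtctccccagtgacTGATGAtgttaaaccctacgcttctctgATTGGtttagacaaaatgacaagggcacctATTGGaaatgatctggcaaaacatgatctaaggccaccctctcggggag
HLA-DMB (chr6:32941029-32941158, minus strand): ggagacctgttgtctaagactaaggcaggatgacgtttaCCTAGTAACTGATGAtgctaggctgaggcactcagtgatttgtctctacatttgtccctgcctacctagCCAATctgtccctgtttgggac
HLA-DPB1 (chr6:33075860-33075989, plus strand): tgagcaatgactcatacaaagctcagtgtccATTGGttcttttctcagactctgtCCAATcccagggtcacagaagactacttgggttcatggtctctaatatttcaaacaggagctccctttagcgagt

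In CD74, HLA-DRB1, HLA-DMA and HLA-DMB the letters TGATGA were followed by a Y box within 70 bases, and the same arrangement was in 0.604% of all 35116 windows of this length. TGATGA and this spacing were chosen after the sequences had been seen. The 7 genes have 10 windows, since HLA-DPA1 and RFX5 have several. On both strands, CCAAT was in 6 of these 10 and in 34.6% of all windows, TGATGA in 5 of the 10 and 10.9%, and CCTNGNAAC in 2 of the 10 (HLA-DMB and RFX5) and 4.31%. The interferon-gamma-activated site letters TTCNNNGAA (7.66% of all windows) and the cyclic AMP response letters TGACGTCA (1.85%) were not among the letters of these 7 genes' windows. Of the 7 genes only HLA-DRB1 has its RefSeq start at the outer end of its GENCODE gene model. The RefSeq starts of CD74, HLA-DMA, HLA-DMB, HLA-DPA1, HLA-DPB1 and RFX5 differ from the outer ends of the models given beside the values. For HLA-DMA the printed bases lie at 32953098 to 32953227, while the model ends at 32969094. These are matches of letters in the reference sequence and not measured binding.

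Counts assigned to genes ranged from 21988826 to 29685306 per library. RNF20 itself stood at 57.8, 58.5 and 58.0 CPM (counts per 1e6 counts, on TMM-scaled library sizes) in shControl replicates 1, 2 and 3 and at 14.1, 12.2 and 11.1 CPM in shRNF20 replicates 1, 2 and 3. The shControl libraries differed far more among themselves than the shRNF20 libraries did, with a common coefficient of variation across tested genes of 20.1% against 4.0%. The line's labels were checked on marker genes. The mesenchymal gene VIM (611 to 689 CPM in shControl, 466 to 481 CPM in shRNF20) and CD44 (714 to 960 and 341 to 365 CPM) were abundant. KRT18 was at 179 to 232 CPM. The hormone receptor PGR was at 0.21 CPM or less, and ERBB2 was present at 91.3 to 141 CPM. EPCAM, listed as low or absent, was at 11.6 to 16.0 CPM in shControl and 20.6 to 21.4 CPM in shRNF20 (log2 fold change 0.64, edgeR adjusted p = 0.00342). The hormone receptor ESR1 had 0.10, 0.20 and 0 CPM in the controls and rose to 1.27, 1.68 and 1.37 CPM in shRNF20 (log2 fold change 3.76, edgeR adjusted p = 6.92e-04). Of 11 markers of antigen presenting cells, MS4A1 and CD1C had 0 counts in all 6 libraries and the pan-leukocyte gene PTPRC reached 0.95 CPM at most. The 11 markers summed to 4.81 to 7.66 CPM in shControl and 4.77 to 7.04 CPM in shRNF20. Single markers moved both ways, ITGAX (log2 fold change -2.04) and CSF1R (-0.80) down and CD14 (1.12) up, and their part in the class II values was not tested.

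All 9 genes passed the filter on low counts. The quasi-likelihood test of edgeR was used, Benjamini-Hochberg adjusted over all 15797 genes tested. At an adjusted p under 0.05, 8 of the 9 fell in shRNF20, against 29.8% of all tested genes, and HLA-DMB did not pass. None of the 9 rose at this threshold, where 28.7% of all tested genes did. No fitted change of the 9 was upward at any adjusted p. Every shRNF20 library was below every shControl library for 7 of the 9 genes, as for 32.8% of all tested genes. The median log2 fold change of the 9 was -1.99, beside -0.01 over all genes tested. The fitted falls were 6.87- to 9.08-fold for the DR and DP chains, 3.97-fold for CD74, 3.44-fold for CIITA, 2.32-fold for HLA-DMA and 1.53-fold for RFX5. In bulk RNA, fewer cells with class II transcripts and less of the transcript per cell cannot be told apart.

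**Figure D1:**
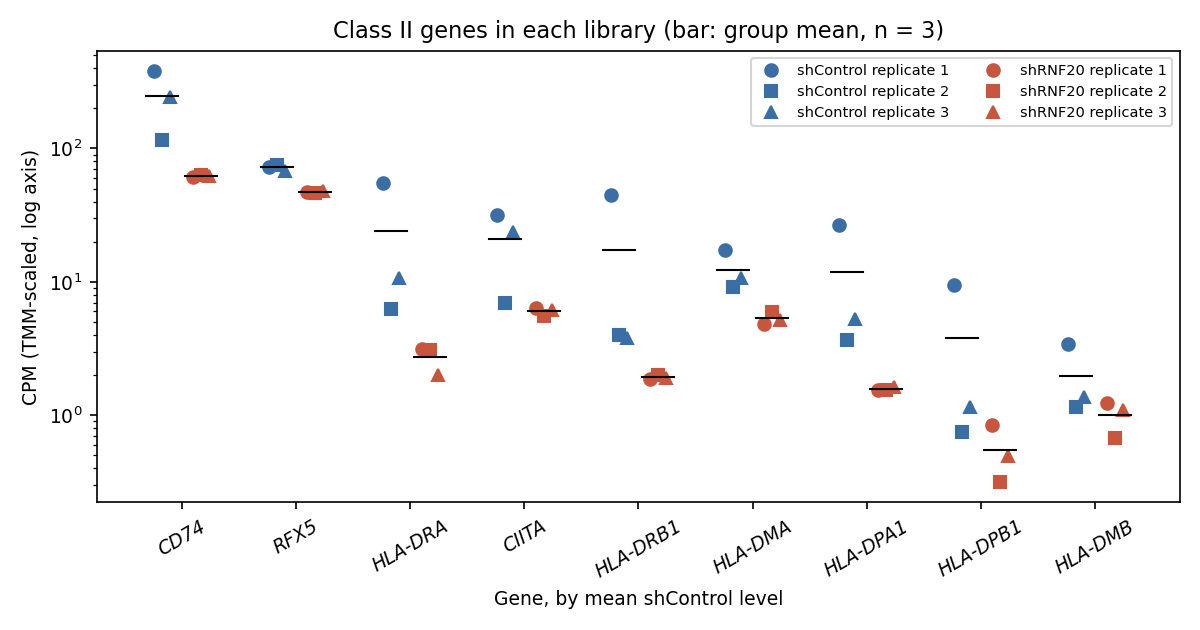
Level of each of the 9 genes in the 6 libraries (CPM, log axis; blue, shControl; red, shRNF20; symbol shape, replicate number; bar, group mean of 3). For most genes the shRNF20 libraries lie close together, less so for HLA-DRA, HLA-DPB1 and HLA-DMB. In contrast, shControl replicate 1 stands above the other 2 controls for every gene except RFX5.

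For the DR chains shControl replicate 1 stood far above the other controls. HLA-DRA, the DR alpha chain (chromosome 6, 32439842 to 32445046), had 1638, 159 and 250 raw counts in shControl replicates 1 to 3 and 82, 68 and 57 in shRNF20. On the CPM scale that was 55.5, 6.28 and 10.7 against 3.16, 3.09 and 2.0 CPM. The groups did not overlap, but shControl replicate 1 was 8.84 times replicate 2, a gap wider than that between replicate 2 and any shRNF20 library. The log2 fold change of HLA-DRA was -3.15 (SE 0.78, edgeR adjusted p = 0.00865).

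HLA-DRB1 encodes the polymorphic DR beta chain (chromosome 6, 32578769 to 32589848) and had 1311, 101 and 89 counts in shControl and 49, 44 and 54 in shRNF20. Its shRNF20 level was nearly constant at 1.89, 2.0 and 1.90 CPM, below the 44.4, 3.99 and 3.79 CPM of the controls (log2 fold change -3.18, SE 0.96, edgeR adjusted p = 0.0201). Reads shared with other DRB genes count for none of them, and the cell line's own DRB alleles may differ from the reference, so the level of this gene is uncertain. Per kilobase of exon, HLA-DRA stood at 1.20, 1.51 and 2.7 times HLA-DRB1 in the controls and at 1.61, 1.48 and 1.01 times in shRNF20, so the ratio of the chains overlapped between the groups.

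The genes of the DP chains lie on opposite strands of chromosome 6, and their models overlap at the 5′ ends, so reads over shared exons count for neither. Summed over the 2 strand columns, such reads count for both genes. HLA-DPB1 then went from 371 to 558 counts (1.5 times) and HLA-DPA1 from 1130 to 1317 (1.17 times). The log2 fold changes were -3.14 and -3.05. Which of the 2 genes the added reads came from cannot be told, so these values do not separate the chains. HLA-DPA1, the DP alpha chain (33064569 to 33080775), had 794, 93 and 123 counts in shControl and 40, 34 and 46 in shRNF20, which is 26.9, 3.67 and 5.24 CPM against 1.54, 1.54 and 1.62 CPM. No shRNF20 library reached the lowest control (log2 fold change -2.93, SE 0.72, edgeR adjusted p = 0.00790). HLA-DPB1, the DP beta chain (33075926 to 33087201), had fewer reads, with 282, 19 and 27 counts in shControl and 22, 7 and 14 in shRNF20. At 0.85, 0.32 and 0.49 CPM in shRNF20 it overlapped the controls, whose replicate 2 was at 0.75 CPM, where replicates 1 and 3 had 9.55 and 1.15 CPM. The fit called it lower nonetheless (log2 fold change -2.78, SE 0.95, edgeR adjusted p = 0.0331).

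CD74 was the most abundant of the 9 genes and its groups lay wholly apart. The invariant chain gene (chromosome 5, 150401637 to 150412929) had 11180, 2928 and 5746 counts in shControl and 1584, 1385 and 1778 in shRNF20. Its level was 379, 116 and 245 CPM in the controls against 60.9, 62.9 and 62.5 CPM after knockdown. The mean went from 246 ± 131 CPM to 62.1 ± 1.02 CPM (SD, n = 3), a log2 fold change of -1.99 (SE 0.35, edgeR adjusted p = 0.00145). Per kilobase of exon CD74 exceeded HLA-DRA 2.74-fold in shControl replicate 1, 7.40- and 9.24-fold in replicates 2 and 3, and 7.77-, 8.19- and 12.5-fold in the shRNF20 libraries. The excess of invariant chain over alpha chain was thus lowest in the control library with the most class II RNA.

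The chains of the peptide exchange factor had smaller fold changes. HLA-DMA (chromosome 6, 32948613 to 32969094) was at 17.3, 9.08 and 10.7 CPM in shControl and 4.85, 5.99 and 5.20 CPM after knockdown, without overlap (log2 fold change -1.21, SE 0.24, edgeR adjusted p = 0.00290). HLA-DMB (chromosome 6, 32934629 to 32941070) was rarely read, with 101, 29 and 32 counts in shControl and 32, 15 and 31 in shRNF20. In CPM these are 3.42, 1.14 and 1.36 against 1.23, 0.68 and 1.09, so the groups overlapped and the gene did not pass (log2 fold change -0.98, SE 0.46, edgeR adjusted p = 0.0957). Whether the HLA-DMA and HLA-DMB changes differ from each other was not tested.

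The regulators differed in how evenly they fell. CIITA (chromosome 16, 10866222 to 10943021) had 940, 177 and 553 counts in shControl and 166, 122 and 176 in shRNF20. Its CPM were 31.8, 6.99 and 23.5 against 6.39, 5.54 and 6.18: replicate 2 of the controls lay just above the shRNF20 libraries, and the other 2 controls at more than 3 times that level. CIITA fell with a log2 fold change of -1.78 (SE 0.45, edgeR adjusted p = 0.00907). RFX5, the large subunit of the RFX complex (chromosome 1, 151340640 to 151347357), was the most even, at 73.0, 75.2 and 68.0 CPM in shControl and 46.9, 46.4 and 48.0 CPM in shRNF20. Of the 8 falls this was the smallest, at -0.61 (SE 0.07), and had the lowest edgeR adjusted p, 1.92e-04.

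CIITA and the genes it drives did not move in fixed proportion among the controls. From shControl replicate 3 to replicate 1 CIITA was 1.35 times higher, CD74 1.55 times, HLA-DRA 5.21 times, HLA-DPA1 5.13 times, HLA-DPB1 8.30 times and HLA-DRB1 11.7 times. Between replicates 2 and 3 CIITA was 3.37 times higher in replicate 3 and CD74 2.12 times, while HLA-DRA was 1.70 times higher and HLA-DRB1 was at 0.95 times the level. In the counts used, replicate 2 of the controls had CIITA close to the knockdown level. This library still held 116 CPM of CD74, where no shRNF20 library exceeded 62.9 CPM. Summed over the 2 strand columns, which also take up reads of other genes, CIITA had 1688, 960 and 1115 counts in shControl. The shRNF20 libraries had 558, 507 and 666. How CIITA in replicate 2 stands to replicate 3 and to shRNF20 thus depends on the counts used.

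**Figure D2:**
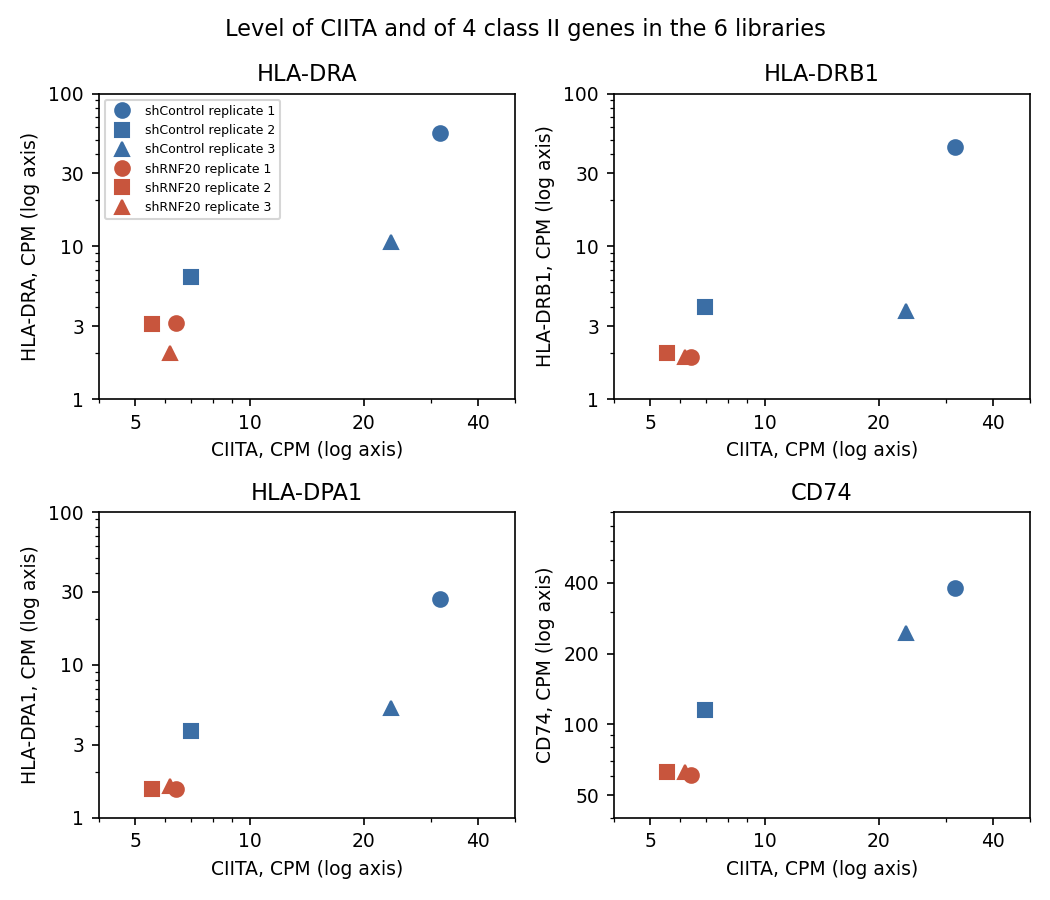
CIITA level (x, CPM, log axis) against HLA-DRA, HLA-DRB1, HLA-DPA1 and CD74 (y, CPM, log axes; the CD74 panel has its own range) in the 6 libraries (blue, shControl; red, shRNF20). The CD74 points climb with CIITA, whereas for the 3 HLA chains shControl replicate 3 (CIITA 23.5 CPM) lies near replicate 2 (6.99 CPM) and replicate 1 (31.8 CPM) stands far above both.

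How far the falls rest on 1 control was measured directly. In shControl replicate 1 the level was at least 2-fold above both other controls for 5 of the 9 genes (HLA-DRA, HLA-DRB1, HLA-DPA1, HLA-DPB1 and HLA-DMB), beside 1.82% of all tested genes. Without that library 7 of the 9 were still lower, with a median log2 fold change of -1.03 and 30.6% of 16338 tested genes lower. The log2 fold changes were then -1.65 for HLA-DRA (SE 0.29, edgeR adjusted p = 0.00177), -1.03 for HLA-DRB1 (SE 0.20, edgeR adjusted p = 0.00318) and -1.53 for HLA-DPA1 (SE 0.24, edgeR adjusted p = 0.00108). CD74 (-1.56), CIITA (-1.36), HLA-DMA (-0.91) and RFX5 (-0.63) also remained past the threshold. HLA-DPB1 (-0.78, edgeR adjusted p = 0.184) no longer passed, and HLA-DMB was at -0.33 (edgeR adjusted p = 0.435). What set shControl replicate 1 apart was not tested; the markers of antigen presenting cells summed to 6.09 CPM in it, between the other 2 controls.

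**Figure D3:**
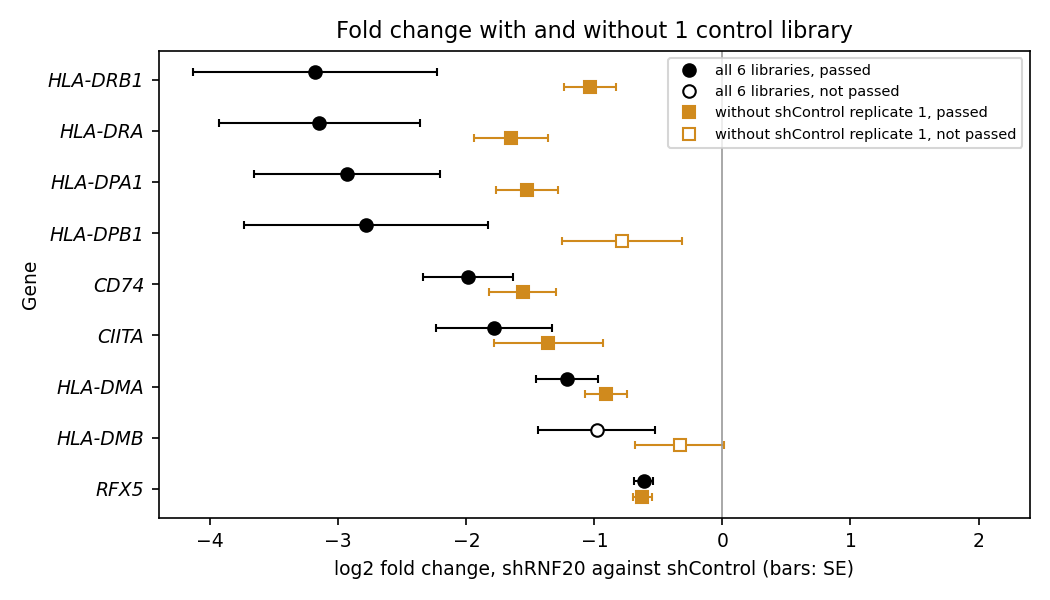
Log2 fold change of shRNF20 against shControl for the 9 genes (bars, SE) with all 6 libraries (black) and without shControl replicate 1 (orange); open symbols did not pass an adjusted p of 0.05. Leaving out this library moves HLA-DRB1 from -3.18 to -1.03 and leaves RFX5 at -0.63 beside -0.61.

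Other limits touch single genes, and under some alternative fits most of the 9 were not called lower. HLA-DRB1 lost its call without shControl replicate 2 (-3.67, edgeR adjusted p = 0.0526) and, like HLA-DPB1, without any 1 of the shRNF20 libraries (edgeR adjusted p = 0.0585 to 0.0646 for HLA-DRB1 and 0.0595 to 0.102 for HLA-DPB1). With the 3 shRNF20 libraries summed to 1 sample, chosen after seeing the data because they were so alike, RFX5 alone of the 9 was called lower (log2 fold change -0.59, edgeR adjusted p = 0.0458), while the other fold changes stayed near their size (CD74 -1.96, edgeR adjusted p = 0.0864). Of all genes 9.28% were lower in that fit, so the share of the 9 was near the background. The limma-voom method called HLA-DMA, CD74 and RFX5 alone, 3 of 9 beside 28.5% of all genes, again near the background. Without a filter on low counts edgeR called HLA-DMA, HLA-DMB and RFX5, beside 16.7% of all genes.

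For CIITA, 23.4% of the annotated exon length is shared with other genes, among them DEXI, and reads there are left out of the counts used. Summed over the 2 strand columns, which also take up reads of overlapping genes on the opposite strand, CIITA had 2.57 times as many counts and a log2 fold change of -1.04 (edgeR adjusted p = 3.80e-04). HLA-DMA moved from -1.21 to -0.77 in the same way, while the counts of HLA-DRA, HLA-DRB1 and CD74 were identical in both.

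Ordered by level per kilobase of exon, the shControl means were 77.3 ± 41.3 CPM per kb for CD74, 18.9 ± 21.3 for HLA-DRA, 15.7 ± 0.81 for RFX5, 14.1 ± 19.0 for HLA-DRB1, 4.88 ± 1.73 for HLA-DMA, 2.08 ± 2.26 for HLA-DPA1, 1.37 ± 1.78 for HLA-DPB1, 1.0 ± 0.61 for CIITA and 0.42 ± 0.27 for HLA-DMB (SD, n = 3). Within single control libraries CD74 was above HLA-DRA in 3 of 3, HLA-DRA above HLA-DRB1 in 3 of 3, HLA-DMA above HLA-DPA1 in 3 of 3, HLA-DPA1 above HLA-DPB1 in 3 of 3 and CIITA above HLA-DMB in 3 of 3. The other neighbours, HLA-DRA and RFX5, RFX5 and HLA-DRB1, HLA-DRB1 and HLA-DMA, and HLA-DPB1 and CIITA, changed places between control libraries. In shRNF20 the order began with CD74 (19.5 ± 0.32) and RFX5 (10.3 ± 0.17), which stood clear of HLA-DRA (2.15 ± 0.50), HLA-DMA (2.11 ± 0.23) and HLA-DRB1 (1.57 ± 0.05); HLA-DRA and HLA-DMA changed places between libraries. CIITA (0.29 ± 0.02), HLA-DPA1 (0.27 ± 0.01), HLA-DMB (0.21 ± 0.06) and HLA-DPB1 (0.20 ± 0.10) followed close together. The length of CIITA includes the 23.4% of exon length whose reads are left out of the counts used. Summed over the 2 strand columns, which also take up reads of other genes, CIITA had 558, 507 and 666 counts in shRNF20, beside 166, 122 and 176. Its place in the order of either group is therefore uncertain. With the longest transcript as the length the order of means changed in several places. In the controls RFX5 (20.2 CPM per kb) then came before HLA-DRA (18.9) and HLA-DPB1 (2.45) before HLA-DPA1 (2.37), and in shRNF20 HLA-DMA (3.08) came before HLA-DRA (2.15) and HLA-DPB1 (0.35) before HLA-DPA1 (0.31) and HLA-DMB (0.22).

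The other class II chain genes were scarce. HLA-DRB5, a second DR beta gene, had 197, 25 and 18 counts in shControl and 6, 13 and 4 in shRNF20 and fell (log2 fold change -3.19, SE 0.94, edgeR adjusted p = 0.0179; -1.52 without shControl replicate 1). That call was lost without shRNF20 replicate 1 (edgeR adjusted p = 0.0636) or replicate 3 (0.0726). The limit given for HLA-DRB1 holds here too: the line's own DRB alleles may differ from the reference. Whether the HLA-DRB5 reads come from this gene or from another DRB gene cannot be told. HLA-DOB, a chain of the HLA-DM inhibitor HLA-DO, was at 19, 21 and 12 counts against 20, 33 and 21 and did not pass (0.58, edgeR adjusted p = 0.229). Its partner HLA-DOA had 33, 13 and 4 counts in shControl and 0, 1 and 0 in shRNF20, too few for the filter; its exact permutation p (two-sided) was 0.1, the lowest value possible with 3 against 3. HLA-DQB1 had 24, 2 and 3 counts against 3, 1 and 0 (exact permutation p = 0.2, two-sided), and HLA-DQA1, HLA-DQA2 and HLA-DQB2 had 3, 2 and 2 counts over all 6 libraries. DQ transcripts were therefore hardly detected at this depth in either group.

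Of 6 further promoter factors, 2 fell, 1 rose and 3 did not pass (median -0.34), with the lower share close to the 29.8% of all tested genes. RFXANK, another RFX subunit, went from 29.5 ± 3.23 to 21.6 ± 0.79 CPM (SD, n = 3; a log2 fold change of -0.45, SE 0.11, edgeR adjusted p = 0.00677). NFYC, a subunit of NF-Y, fell less firmly (-0.39, edgeR adjusted p = 0.0466): its groups overlapped, and the call was lost without any 1 library except shControl replicate 2 (edgeR adjusted p = 0.0733 to 0.137). CREB1, the factor of the X2 box, rose, with 65.3 ± 3.19 CPM in the controls and 87.9 ± 2.60 CPM after knockdown (SD, n = 3; log2 fold change 0.43, edgeR adjusted p = 0.00108).

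Among 8 genes of endosomal processing, 3 fell, 4 did not pass and 1 was too low to test (median -0.11). Cathepsin S, CTSS, which trims CD74 down to the fragment that HLA-DM removes, had 60.7, 48.1 and 68.1 CPM in shControl and 14.5, 12.5 and 16.1 CPM in shRNF20. The log2 fold change of CTSS, -2.03 (SE 0.15, edgeR adjusted p = 2.18e-05), stands beside -1.99 for CD74, and its 3 controls lay closer together. It kept its size without shControl replicate 1 (-2.03) and passed with the shRNF20 libraries summed (edgeR adjusted p = 0.00606). CTSD (-0.55, SE 0.07) and CTSB (-0.49, SE 0.10) fell less (edgeR adjusted p = 2.39e-04 and 0.00245). The values of CTSL (0.09), CTSH (0.03), LGMN (-0.11) and SPPL2A (0.23) did not pass.

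Of 3 genes that set the lifetime of class II at the surface, CD83, which protects it, fell (-0.72, edgeR adjusted p = 0.0260). The adjusted p of CD83 was 0.0563 to 0.0799 without shControl replicate 1 or 3 or any shRNF20 library. The ubiquitin ligases MARCHF1 (0.59) and MARCHF8 (-0.05) did not pass. Among the genes of the surface CD74 receptor, its signalling partner CD44 fell from 822 ± 126 to 351 ± 11.98 CPM (SD, n = 3; -1.23, SE 0.11, edgeR adjusted p = 4.50e-05) and CXCR4 did not pass (-0.27). The other 4, CXCR2, ACKR3, DDT and the ligand MIF, were too low in these counts to test; ACKR3 had 30 counts in shControl replicate 1 and 1 in the other 5 libraries together. MIF had 3 counts without strand but 489 over the strand columns, and DDT had 33 but 396. The levels of MIF and DDT can therefore not be read from the counts used. Other listed genes also had more counts over the strand columns, such as VIM (378836 beside 86103), IRF1 (10301 beside 5885) and RFXANK (6893 beside 3965). With the sum of strand columns the log2 fold changes were 0.89 for IRF1 and -0.33 for RFXANK.

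Of the 7 genes of the interferon gamma axis upstream of CIITA, 2 fell and 2 rose (median 0.22), shares close to the 29.8% lower and 28.7% higher among all tested genes. The transcription factor IRF1, an inducer of CIITA, was at 24.0, 29.2 and 21.5 CPM in shControl and 49.0, 51.9 and 53.2 CPM after knockdown (a log2 fold change of 1.04 with SE 0.12; edgeR adjusted p = 1.43e-04). The receptor chain IFNGR1 also rose (0.62, SE 0.08, edgeR adjusted p = 2.20e-04). The kinase JAK2 fell (-0.71, SE 0.14, edgeR adjusted p = 0.00311), as did JAK1 (-0.37, edgeR adjusted p = 0.0134). CIITA and IRF1 thus changed in opposite directions, and IRF1 in shControl replicate 1, the library with the most CIITA, lay between the other controls.

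**Figure D4:**
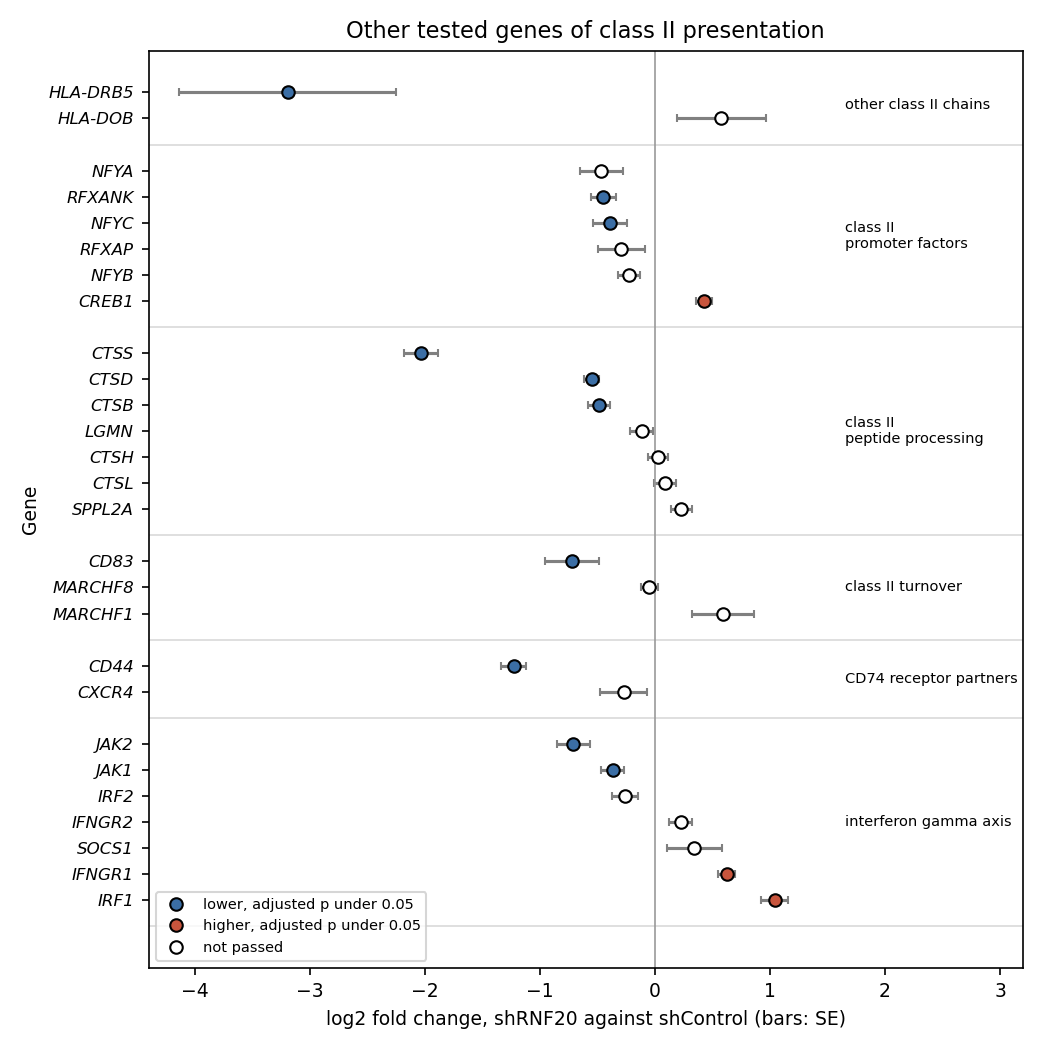
Log2 fold change of shRNF20 against shControl (x; bars, SE) for the 27 tested genes of 6 lists around class II presentation; blue and red symbols passed an adjusted p of 0.05, white ones did not. Of these genes 10 fell and 3 rose, with HLA-DRB5 (-3.19) and CTSS (-2.03) lowest and IRF1 (1.04) highest.

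Across the 6 lists, 27 of 37 genes were tested, of which 10 fell and 3 rose (median -0.26). These counts are to be read beside the 29.8% lower and 28.7% higher among all tested genes.

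The tested genes whose log2-CPM most resembled each of the 8 called genes over the 6 libraries include 1 gene of the lists above, NFYA. Among the closest were MTMR8 and TCOF1 for CD74 (Pearson r 0.998 each) and MTMR7, H2AZ2 and NONO for HLA-DRA (0.995 to 0.996). HLA-DRB1 was closest to NFYA, TOMM40P4 and CEMIP (0.996 to 0.999), HLA-DPA1 to RIF1, ZPR1 and ADGRF5 (0.996 to 0.998), and HLA-DPB1 to USP46-DT, ROCK2 and TAF15 (0.990 to 0.992). PCNT, TMEM241 and HS3ST1 were nearest to HLA-DMA (0.995 to 0.997), RCC1, BIRC5 and RAD1 to CIITA (0.996 to 0.997), and IDH2, HERC4 and TRIM8 to RFX5 (0.999 each). NFYA, an NF-Y subunit, was at 63.2 CPM in shControl replicate 1, 38.2 CPM in both other controls and 33.4 to 34.2 CPM in shRNF20, and did not pass (edgeR adjusted p = 0.0598). All points share the 2 groups and shControl replicate 1, so such values are a description of 6 libraries: r exceeded 0.95 for 11.5% of tested genes with RFX5, 3.41% with CD74 and 0.42% with HLA-DPB1.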

How the data were processed

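RNA of 3 shControl and 3 shRNF20 libraries of MDA-MB-231 was extracted on columns and sequenced by a provider, per the labels' protocols. Per the submitters' processing notes, FastQC 0.12.1 and STAR 2.7.11a on hg38 were used; annotation release and mRNA enrichment were not given in the sources used here. Raw read counts per gene, without strand and for each strand, were deposited by the authors. Both strand columns were near equal (50.1% to 50.2% in 1 of them), so counts without strand were used; reads over exons of several genes (10.7% to 11.2%) or several places are not in them. Lines naming no gene held 20.9% to 24.1% of reads and were left out.

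Counts were tested with edgeR 4.0.16 (R 4.3.3): filterByExpr (minimum count 10), TMM, robust quasi-likelihood F-test of shRNF20 against shControl, Benjamini-Hochberg over all tested genes, threshold 0.05. SEs are the log2 fold change over the root of F. Log2-CPM used a prior count of 2. Alternatives used limma 3.58.1 and DESeq2 1.42.0, among others. Positions and exon lengths are from GENCODE 29 (GRCh38). Replicates are not stated to be separate cultures, so p-values cover only how far these samples vary, perhaps technically.

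The 9 genes and all lists were chosen with earlier results of these data known. Named are the 9, up to the 3 largest changes among genes that passed in each other list, and for each called gene the 3 most similar ones; JAK1 and list members that did not pass were named after their values were seen. A few genes of these lists are not reported here and are in no count over the lists. An exact permutation test was used for class II chains below the filter.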

Additional observations from a re-analysis of the deposited data

How the results depend on the processing

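Of the 9 genes, 8 were lower with RLE or upper quartile scaling, without mitochondrial genes, with the sum of the strand columns and with replicate number as a block. Among all genes, 8936 to 10440 were called in either direction in these fits. Whether equal replicate numbers mark a pairing is not stated in the labels. Deviations of same-numbered libraries from their group means had correlations of -0.0163, 0.0350 and 0.0284. With so little spread among the shRNF20 libraries (4.0%), these values cannot decide whether the numbers are a pairing. With the replicate block 8936 of all genes were called beside 9232. DESeq2 called 7 of the 9, beside 23.2% of all genes lower, and gave no adjusted p for HLA-DRB1. A stricter filter (3 libraries at 1 CPM or more) dropped HLA-DPB1 and called 7, with 8408 of all genes called in either direction. Fewer were called with limma-voom (3, where 28.5% of all genes were lower), without a filter on low counts (3, beside 16.7%) and with the shRNF20 libraries summed to 1 sample (1, beside 9.28%; 3372 of all genes called in either direction). limma-voom with group weights, also added after seeing the data, called 6, beside 29.4% of all genes lower. No fold change of the 9 turned positive in any of these fits. With 1 library left out, 6 to 8 of the 9 were lower, and 7523 to 9777 genes were called in either direction. The share of all genes lower was 30.6% without shControl replicate 1. Of the other pathway genes, 7 to 12 were lower and 3 to 5 higher with 1 library left out. Higher ones were 5 with the sum of strand columns, and lower ones were 2 with the summed shRNF20 libraries. The cause of these differences was not tested. The DQ chains and HLA-DOA had too few counts to test, and the reason for this was not tested.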
